A study of Homo sapiens with 18 samples.

Results

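The 10 genes described here encode tubulins, the proteins from which microtubules are built: the alpha-tubulins TUBA1A, TUBA1B and TUBA1C, the beta-tubulins TUBB, TUBB2A, TUBB2B, TUBB3, TUBB4B and TUBB6, and the gamma-tubulin TUBG1. They are the 10 rows of 57773 in the deposited expression table that carry these symbols. The family was chosen because TUBA1B was much lower with cytochalasin D. Every comparison of the 10 tubulins that sets cytochalasin D libraries against others is therefore given as a description, without a test. RNA with poly-A tails was sequenced from hTERT-RPE1 cells, an established human line made from retinal pigment epithelium with the help of telomerase. Cells received cytochalasin D (cytoD), which blocks actin polymerisation and so the division of the cell body, or ZM447439 (ZM), an inhibitor of Aurora kinases, or no drug. Cells were stained with the DNA dye Hoechst and sorted by flow cytometry into cells with 4N and cells with 2N DNA content. This gave 6 groups (cytoD 4N, cytoD 2N, ZM 4N, ZM 2N, untreated 4N and untreated 2N) of 3 biological replicates. All groups came from the same line, grown in 10% serum. The labels give ZM447439 at 2.5 µM for 24 h, in the same words for all libraries, and neither dose nor duration of cytochalasin D.

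Alpha- and beta-tubulin pair into the dimer that polymerises into microtubules, and gamma-tubulin sits in ring complexes at centrosomes that start new microtubules. Vertebrates have several alpha and beta genes, whose proteins are close to identical and whose use differs between tissues. Cells also tune tubulin mRNA to the amount of free dimer: when free dimer builds up, the adaptor protein TTC5 recognises the first residues of tubulin emerging from the ribosome, and the CCR4-NOT complex then degrades the mRNA. This loop is known as tubulin autoregulation.

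The codons for those first residues are shown here because they differ between the 3 tubulin families. They come from the GENCODE 29 transcripts, with codons 2 to 4 in capitals.
TUBA1A: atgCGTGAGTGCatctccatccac
TUBA1B: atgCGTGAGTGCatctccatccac
TUBA1C: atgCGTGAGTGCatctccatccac
TUBB: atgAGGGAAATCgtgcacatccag
TUBB2A: atgCGCGAGATCgtgcacatccag
TUBB2B: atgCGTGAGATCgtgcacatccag
TUBB3: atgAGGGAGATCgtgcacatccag
TUBB4B: atgAGGGAAATCgtgcacttgcag
TUBB6: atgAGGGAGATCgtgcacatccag
TUBG1: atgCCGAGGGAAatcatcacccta

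The alpha genes read alike over this stretch, whereas the beta genes spell the same residues with different codons. The gamma gene starts differently. Over the whole coding sequence the alpha genes were 95.9% to 97.2% identical to each other. TUBB2A and TUBB2B were 98.1% identical, and all other pairs of beta genes lay between 80.9% and 87.7%.

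Such likeness limits how far reads can be assigned to one gene. Of all stretches of 50 bases in the TUBA1B transcript, 87.1% also occur in the transcript of another gene, against 14.6% for TUBB4B and 0.99% for TUBB6. For reads that map to several genes, the treatment in the authors' counting is not given in these sources. The library kit did not mark strand, and the antisense gene TUBA1B-AS1, which overlaps TUBA1B, held 100.005% to 100.091% of the TUBA1B reads, so the pair cannot be told apart. A readthrough gene over TUBB3 likewise held 100.5% to 104.3% of the TUBB3 reads. TUBA1A and TUBA1C also overlap each other on opposite strands. Values of single alpha genes, of TUBB2A against TUBB2B and of TUBB3 are therefore less certain than those of TUBB4B. TUBB6 shares little sequence with other genes. AFG3L2, however, overlaps it on the other strand and held 17.3% to 68.9% of the number of TUBB6 reads.

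Values are RPKM, read numbers scaled by gene length and library size, as the authors deposited them; here the length is the gene's genomic span with introns. The steps between low values gave library sizes of 51135631 to 78294388 reads, and all 10 tubulins came out as whole reads, within 0.1, in all 18 libraries, for 9 of them with the GENCODE 29 span and for TUBA1C with 84596 bases in place of its GENCODE 29 span of 85868. That length was found as the only one searched that gave whole reads, so the whole reads of TUBA1C are no separate check of it. They held from 413 reads (TUBB2B) to 193059 reads (TUBB) in a library. RPKM are relative to the library, so fewer cells of a kind and less RNA per cell cannot be told apart. In every treatment 1 numbered replicate stood farthest from the other 2 in both sorts, and this was number 1 for cytochalasin D, number 1 for ZM447439 and number 3 for untreated cells. Of 13 markers of retinal pigment epithelium, 7, among them RPE65, TYR and MITF, stayed below a mean of 0.5 RPKM, while OTX2, PMEL, KRT8 and KRT18 were above it. Blood cell and neuron markers, 6 of each, summed to at most 0.254 and 0.252 RPKM in any library; TUBB3, TUBB2B and TUBA1A are also used to mark neurons.

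**Figure D1:**
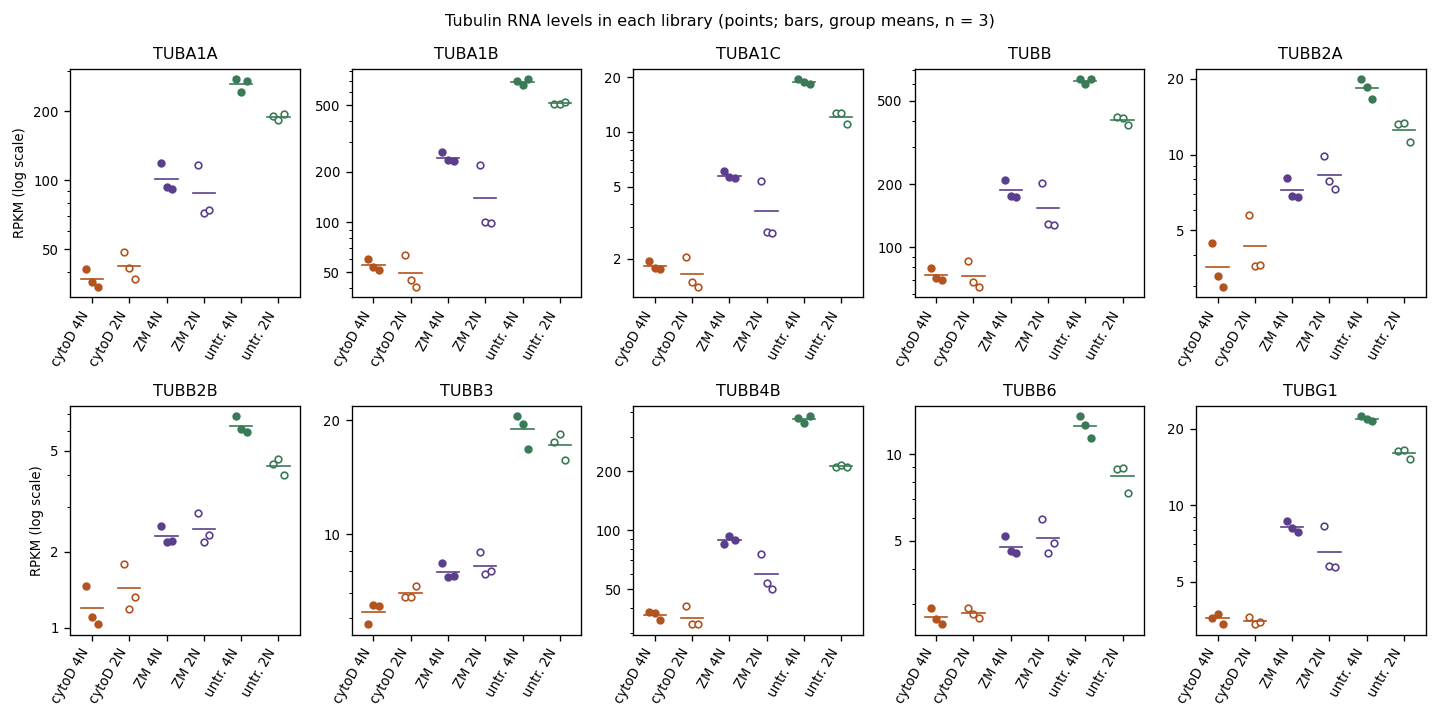
RPKM (log scale) of the 10 tubulin genes in every library; filled points are 4N libraries, open points 2N libraries, and bars group means (n = 3). In all 10 panels the 6 cytochalasin D libraries lie below the 6 ZM447439 libraries, which lie below the 6 untreated libraries.

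The order of the levels was shared by the whole family. For 10 of 10 genes each untreated 2N library was above each ZM447439 library, and for 10 of 10 each ZM447439 library was above each cytochalasin D library. The cytochalasin D libraries are those behind the choice of the family. The share of all genes with this order across both sorts is not given here. Within the 4N and 2N sorts, 40.4% and 35.2% of all genes tested were lower without overlap with ZM447439 than in untreated cells. For cytochalasin D against ZM447439 these shares were 32.4% and 27.6%. Untreated 4N cells had the highest mean for all 10 tubulins, without overlap with untreated 2N cells for 9. TUBB3 was the exception. Of all genes tested, 28.5% were higher in untreated 4N than in untreated 2N cells without overlap. Neighbours at the lower end did not separate: the 2 cytochalasin D sorts overlapped for 9 of 10 genes. The ZM447439 sorts overlapped for 7 of 10, and their order was mixed, with ZM 4N above ZM 2N by mean for 6 genes and below it for TUBB2A, TUBB2B, TUBB3 and TUBB6.

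TUBA1B, a broadly expressed alpha-tubulin, had 60.4, 53.6 and 51.8 RPKM in cytoD 4N cells, 261, 235 and 232 RPKM in ZM 4N cells, and 701, 658 and 716 RPKM in untreated 4N cells. In the 2N sorts it had 63.1, 44.9 and 40.8 RPKM with cytochalasin D, 218, 99.4 and 99.2 RPKM with ZM447439, and 511, 509 and 520 RPKM without treatment. The groups lie far apart in both sorts, and the ZM 2N replicate numbered 1 is more than 2 times as high as the other 2 of its group. These are the values for which the family was chosen. On the log2(RPKM + 0.5) scale, on which all differences below are given, TUBA1B was lower in cytoD 4N than in untreated 4N cells (difference -3.64, SE 0.23) and lower in cytoD 2N than in untreated 2N cells (difference -3.38, SE 0.23).

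The other alpha genes, which were not named in the reason for the choice but share sequence with TUBA1B, were also lower. TUBA1A, an alpha-tubulin prominent in developing neurons, had 41.0, 35.9 and 34.3 RPKM in cytoD 4N cells, against 276, 244 and 271 RPKM in untreated 4N cells (difference -2.82, SE 0.16). TUBA1C had 1.96, 1.78 and 1.76 RPKM in cytoD 4N cells, against 19.5, 18.8 and 18.3 RPKM in untreated 4N cells (difference -3.05, SE 0.17). No library of one group reached the other for either gene. In the 2N sort the differences were -2.15 for TUBA1A (SE 0.16) and -2.56 for TUBA1C (SE 0.17).

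Among the beta genes, those with most reads differed most. TUBB, the main beta-tubulin of many dividing cells, had 79.8, 71.0 and 69.7 RPKM in cytoD 4N cells, against 632, 600 and 634 RPKM in untreated 4N cells (difference -3.07, SE 0.15). TUBB4B, another widely expressed beta-tubulin, had 38.1, 37.8 and 34.9 RPKM in cytoD 4N cells, against 372, 352 and 380 RPKM in untreated 4N cells (difference -3.30, SE 0.12). TUBB4B shares little of its transcript with other genes, and in 4N cells its difference was the second largest on this scale, after TUBA1B. That rank may depend on the value added before logs: with a pseudocount of 0.1 TUBA1C was at -3.29 in 4N cells, against -3.05. In 2N cells TUBA1C, at -2.56, was marginally lower than TUBB4B, at -2.55.

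TUBB3, known as the beta-tubulin of neurons, had the smallest difference of the 10. It had 5.78, 6.49 and 6.46 RPKM in cytoD 4N cells, against 20.5, 19.5 and 16.8 RPKM in untreated 4N cells (difference -1.53, SE 0.08), and 6.81, 6.84 and 7.30 RPKM in cytoD 2N cells, against 17.6, 18.4 and 15.7 RPKM in untreated 2N cells (difference -1.24, SE 0.08). The groups still did not overlap. TUBB2A, TUBB2B and TUBB6 lay between, at -2.23, -2.00 and -2.02 in 4N cells and at -1.46, -1.34 and -1.43 in 2N cells.

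Gamma-tubulin, which shares no stretch of 50 bases with the other 9 transcripts, was lower as well. Of its stretches, however, 30.3% occur in the transcript of some other gene. RETREG3, on the other strand, held 46.9% to 263.9% of the number of TUBG1 reads. TUBG1 had 3.60, 3.72 and 3.41 RPKM in cytoD 4N cells, against 22.4, 21.8 and 21.6 RPKM in untreated 4N cells (difference -2.46, SE 0.10). In the 2N sort the TUBG1 difference was -2.05 (SE 0.10). All 10 genes were lower in every cytochalasin D library than in any untreated library of the same sort, where 46.0% of the 13037 genes tested in 4N cells and 42.3% in 2N cells were lower without overlap. The median over the family was -2.64 in 4N and -2.10 in 2N cells, beside -0.13 and -0.08 over all genes tested.

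Set against ZM447439, cytochalasin D libraries were again lower for all 10 genes in both sorts, without overlap; of all genes tested, 32.4% in 4N and 27.6% in 2N cells were. The difference between cytoD 4N and ZM 4N cells was largest for TUBA1B (-2.12, SE 0.23) and smallest for TUBB3 (-0.33, SE 0.08). Between cytoD 2N and ZM 2N cells the same genes marked the ends, TUBA1B at -1.40 (SE 0.23) and TUBB3 at -0.23 (SE 0.08).

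**Figure D2:**
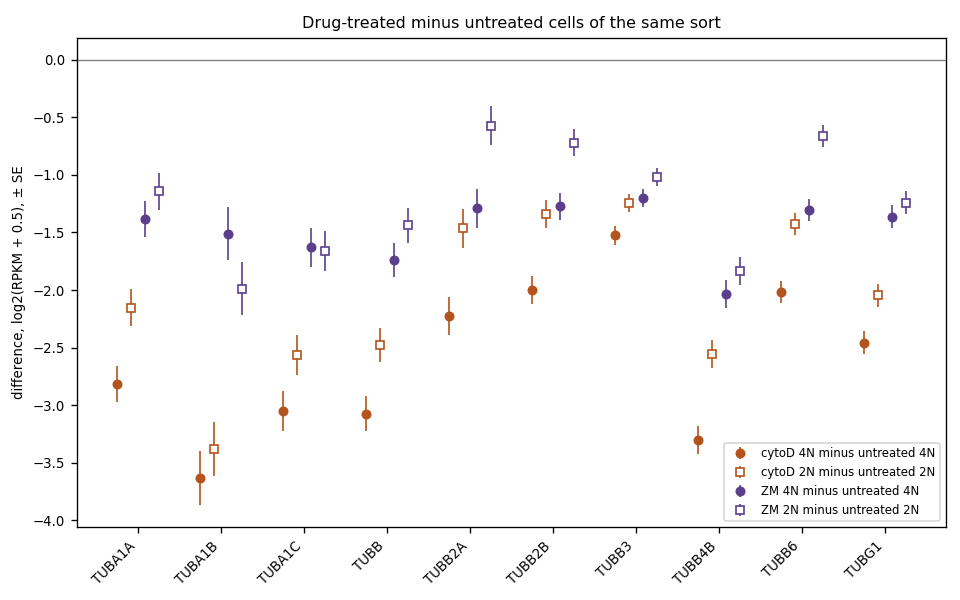
Difference in log2(RPKM + 0.5), drug-treated minus untreated cells of the same sort, for each tubulin; error bars are SE from limma (n = 3 libraries a group), filled points the 4N sort and open points the 2N sort. All 40 differences lie below 0, and those with cytochalasin D run lowest for TUBA1B and highest for TUBB3.

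The comparison of ZM447439 with untreated cells was tested with limma, with Benjamini-Hochberg adjustment over the 13037 genes; it shares its untreated libraries with the comparison behind the choice of the family. All 10 tubulins fell in 4N cells and all 10 fell in 2N cells, where 35.5% and 32.5% of all genes tested fell and 19.6% and 23.6% rose. No tubulin's groups overlapped; 40.4% of all genes tested in 4N and 35.2% in 2N cells were lower without overlap. The median difference was -1.37 in 4N and -1.19 in 2N cells, beside -0.07 and -0.04 over all genes tested. Leaving out any 1 of the libraries compared, or changing any other setting tried, kept all 10 called in both sorts.

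TUBB4B fell most in 4N cells. It had 85.2, 93.8 and 89.3 RPKM in ZM 4N cells, against 372, 352 and 380 RPKM in untreated 4N cells (difference -2.04, SE 0.12, limma adjusted p = 8.51e-09), and 75.8, 53.6 and 49.96 RPKM in ZM 2N cells, against 211, 215 and 209 RPKM in untreated 2N cells (difference -1.84, SE 0.12, limma adjusted p = 3.52e-08). TUBB had 210, 175 and 175 RPKM in ZM 4N cells, which are below each of the 3 untreated 4N values given above (difference -1.74, SE 0.15). In ZM 2N cells TUBB had 203, 129 and 128 RPKM, against 421, 415 and 383 RPKM in untreated 2N cells (difference -1.44, SE 0.15). Neither gene's groups overlapped, and replicate 1 was again the highest ZM 2N library for both.

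TUBA1B fell by 1.51 in 4N cells (SE 0.23, limma adjusted p = 7.31e-05) and fell by 1.99 in 2N cells (SE 0.23, limma adjusted p = 5.55e-06). TUBA1C fell by 1.63 and 1.66 in the 4N and 2N sorts (SE 0.17 each), and TUBA1A by 1.38 and 1.14 (SE 0.16 each). TUBA1A had 119, 93.8 and 91.4 RPKM in ZM 4N cells and 116, 72.3 and 74.6 RPKM in ZM 2N cells, against 191, 184 and 194 RPKM in untreated 2N cells. For gamma-tubulin, TUBG1 had 8.66, 8.13 and 7.86 RPKM in ZM 4N cells, against 22.4, 21.8 and 21.6 RPKM in untreated 4N cells; it fell by 1.36 in 4N and by 1.24 in 2N cells (SE 0.10 each).

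TUBB2A and TUBB2B, a pair of close copies that lie on the same chromosome, and TUBB6 fell least in 2N cells. TUBB2A had 9.86, 7.82 and 7.33 RPKM in ZM 2N cells, against 13.2, 13.4 and 11.2 RPKM in untreated 2N cells (difference -0.57, SE 0.17, limma adjusted p = 0.00974). TUBB2B fell by 0.72 (SE 0.12, limma adjusted p = 0.00014) and TUBB6 by 0.66 (SE 0.10, limma adjusted p = 4.03e-05). In 4N cells the 3 genes fell by 1.29, 1.27 and 1.30. TUBB3 fell by 1.20 in 4N and by 1.02 in 2N cells (SE 0.08 each).

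Markers of cells in G2 and mitosis moved with these results. The 12 G2/M genes of the list used, among them CCNB1, PLK1 and MKI67, summed to 18.2 to 20.2 RPKM in cytoD 4N, 37.3 to 46.9 RPKM in ZM 4N and 253 to 276 RPKM in untreated 4N libraries. In 2N libraries the sums were 6.77 to 13.1 RPKM with cytochalasin D, 11.8 to 24.9 RPKM with ZM447439 and 54.5 to 81.0 RPKM without treatment. All 12 passed the filter and none was at 0 in all 18 libraries. Their part in the tubulin differences was not tested.

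In untreated cells the 4N sort had more tubulin RNA than the 2N sort. Of the 10 genes, 7 rose and none fell in 4N cells, where 12.9% of all genes tested rose and 4.55% fell; 28.5% were higher without overlap, as 9 of the 10 tubulins were. TUBB4B rose most (difference 0.80, SE 0.12, limma adjusted p = 0.000352), with the 4N and 2N values given above. TUBG1, the gamma-tubulin of the ring complexes, had 22.4, 21.8 and 21.6 RPKM in untreated 4N cells, against 16.3, 16.5 and 15.2 RPKM in untreated 2N cells (difference 0.44, SE 0.10, limma adjusted p = 0.00618). TUBB6 had 13.5, 12.7 and 11.4 RPKM in untreated 4N cells, against 8.88, 8.94 and 7.32 RPKM in untreated 2N cells (difference 0.56, SE 0.10, limma adjusted p = 0.000929).

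TUBB rose by 0.61 (SE 0.15, limma adjusted p = 0.0114), TUBA1C by 0.62 (SE 0.17, limma adjusted p = 0.0228), TUBB2A by 0.53 (SE 0.17, limma adjusted p = 0.0425) and TUBB2B by 0.48 (SE 0.12, limma adjusted p = 0.0119). The other three did not pass: TUBA1A differed by 0.47 (SE 0.16, limma adjusted p = 0.055), TUBA1B by 0.43 (SE 0.23, limma adjusted p = 0.253) and TUBB3 by 0.13 (SE 0.08, limma adjusted p = 0.315). With culture as a block, TUBA1A passed (limma adjusted p = 0.00153) and 8 genes rose. The share of all genes called with this block is not given here. Leaving out 1 library left 4 to 6 genes called, with 4 without untreated 4N replicate 1 and 4 without untreated 2N replicate 3. TUBA1C lost its call without untreated 4N replicate 1, 2 or 3 or untreated 2N replicate 3 (highest limma adjusted p = 0.0883), TUBB2B without untreated 4N replicate 1 or untreated 2N replicate 3 (highest 0.0569), and TUBB2A without any 1 of the 6 libraries (limma adjusted p from 0.0559 to 0.154). With no filter and with quantile normalization TUBA1C (limma adjusted p = 0.0503 and 0.0653) and TUBB2A (limma adjusted p = 0.0893 and 0.106) also lost their calls, TUBB2A in addition with a pseudocount of 0.1 (limma adjusted p = 0.0542) and after rescaling (limma adjusted p = 0.0684). The G2/M sums were 253 to 276 RPKM in these 4N and 54.5 to 81.0 RPKM in these 2N libraries.

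**Figure D3:**
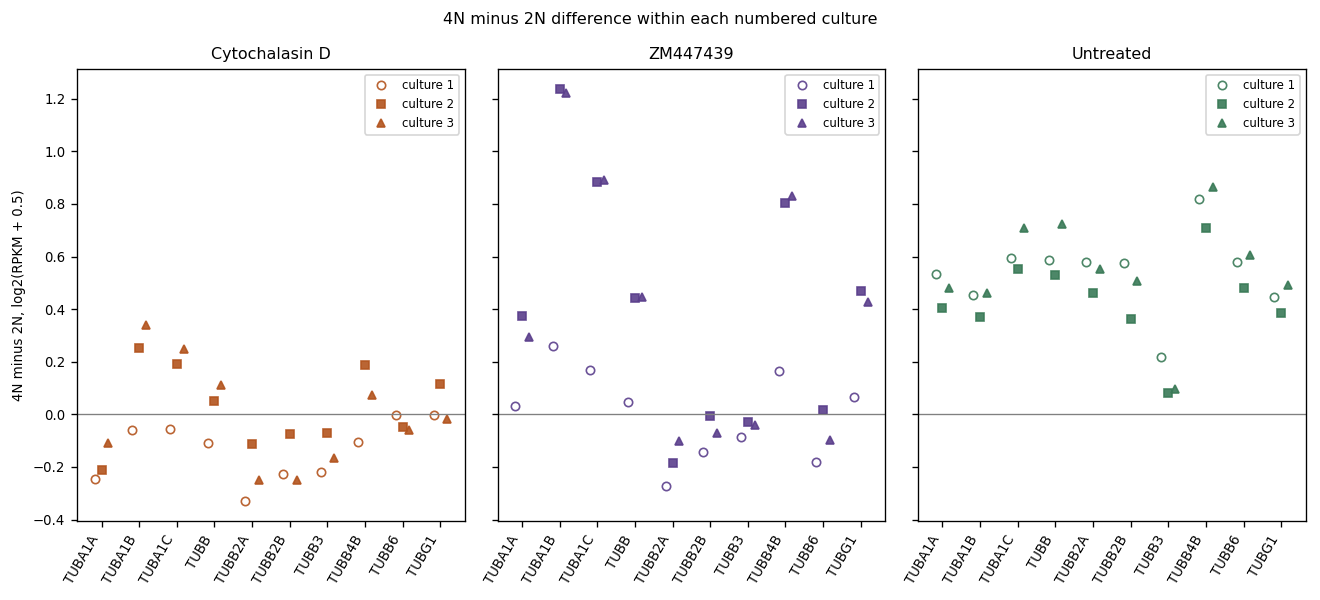
The 4N minus 2N difference in log2(RPKM + 0.5) within each replicate number, for cytochalasin D, ZM447439 and untreated cells. A number is taken as a culture, which the labels do not state. All 30 untreated points lie above 0, the cytochalasin D points lie on both sides of 0, and ZM447439 culture 1 lies below cultures 2 and 3 for the genes with the largest differences.

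None of the 10 genes passed between cytoD 4N and cytoD 2N cells, 0 had an unadjusted p under 0.05 in limma, and 0% of all genes tested were called in either direction. The differences ran from -0.23 for TUBB2A (SE 0.17) to 0.18 for TUBA1B (SE 0.23). TUBA1A had 41.0, 35.9 and 34.3 RPKM in cytoD 4N cells, against 48.7, 41.7 and 37.0 RPKM in cytoD 2N cells, which overlap; within cultures the difference was -0.25, -0.21 and -0.11. TUBB2A, TUBB2B, TUBB3 and TUBB6 were likewise lower in the 4N sort in 3 of 3 cultures, and with culture as a block 0 of the 10 genes passed. TUBB3 was lower in each cytoD 4N than in each cytoD 2N library (difference -0.15, SE 0.08, limma adjusted p = 0.986); 5.56% of all genes tested were lower without overlap. The G2/M sums, 18.2 to 20.2 RPKM in cytoD 4N and 6.77 to 13.1 RPKM in cytoD 2N libraries, did not overlap.

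With ZM447439, 3 genes rose in 4N cells and none fell, where 5.21% of all genes tested rose and 2.45% fell; the same 3 were higher without overlap, as 13.7% of all genes were. TUBA1B rose by 0.91 (SE 0.23, limma adjusted p = 0.0314), TUBA1C by 0.65 (SE 0.17, limma adjusted p = 0.0365) and TUBB4B by 0.60 (SE 0.12, limma adjusted p = 0.0116). In ZM 4N cells TUBA1C had 6.08, 5.63 and 5.56 RPKM, against 5.36, 2.82 and 2.77 RPKM in ZM 2N cells, without overlap but with replicate 1 of the 2N sort close to the 4N libraries. Within culture the TUBA1B difference was 0.26 in culture 1, 1.24 in culture 2 and 1.22 in culture 3.

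Single libraries decided this count. It was 6 without ZM 2N replicate 1, 1 without ZM 4N replicate 1 or ZM 4N replicate 3, and 0 without ZM 4N replicate 2, ZM 2N replicate 2 or ZM 2N replicate 3. With culture as a block 7 genes were called: TUBA1A (limma adjusted p = 0.0488), TUBB (limma adjusted p = 0.0435) and TUBG1 (limma adjusted p = 0.0292) rose beside the first 3, and TUBB2A fell by 0.19 (limma adjusted p = 0.0458). The share of all genes called with this block is not given here, so the 7 cannot be set against it. With no filter TUBA1B and TUBA1C lost their calls (limma adjusted p = 0.0853 and 0.095), and in a fit of the ZM447439 groups alone TUBA1B, TUBA1C and TUBB4B did (limma adjusted p = 0.249, 0.26 and 0.191). The G2/M sums were 37.3 to 46.9 RPKM in ZM 4N and 11.8 to 24.9 RPKM in ZM 2N libraries.

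Whether the difference between sorts itself changed with ZM447439 was tested as an interaction. Of the 10 genes, 1 passed, where 6.58% of all genes tested had a lower and 3.52% a higher 4N minus 2N difference with ZM447439. A count of 1 in 10 is near the share of all genes. The gene was TUBB6, a beta-tubulin made in many tissues (interaction -0.64, SE 0.14, limma adjusted p = 0.00842). TUBB6 had 5.17, 4.60 and 4.53 RPKM in ZM 4N cells, against 5.93, 4.54 and 4.89 RPKM in ZM 2N cells, a difference of -0.09 (SE 0.10), whereas the sorts of untreated cells were apart by 0.56. AFG3L2, which overlaps TUBB6 on the other strand, held 17.3% to 68.9% of the number of TUBB6 reads, and its part in this result was not tested.

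TUBB2A and TUBB2B had interactions of -0.72 (SE 0.24, limma adjusted p = 0.072) and -0.55 (SE 0.17, limma adjusted p = 0.052). With culture as a block 3 genes passed, TUBB2A (limma adjusted p = 0.00144) and TUBB2B (limma adjusted p = 0.00377) beside TUBB6, and the share of all genes passing with this block is not given here. The count was 2 without ZM 4N replicate 1, where TUBB2B passed too, and 2 without ZM 2N replicate 1, where TUBA1B had a higher difference with ZM447439 (0.85, limma adjusted p = 0.00639, against 0.48, SE 0.33, limma adjusted p = 0.401 with all libraries). A test of this kind with cytochalasin D in place of ZM447439 was not run, since the family was chosen on those libraries.

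The mix of genes within the families also differed between groups. Here the unit is the share of a family's reads, which is not per length. TUBA1B made up 38.2% ± 0.0964 of the alpha reads in cytoD 4N, 48.1% ± 0.781 in ZM 4N and 47.3% ± 0.871 in untreated 4N libraries (SD, n = 3 each). TUBA1A held 32.1% ± 0.492, 25.1% ± 1.64 and 22.6% ± 0.700 in the same 3 groups. In 2N libraries the TUBA1A share was 37.8% ± 2.13 with cytochalasin D, 33.8% ± 3.52 with ZM447439 and 23.0% ± 0.803 without treatment, and both drugs' libraries lay above the untreated ones.

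Of the beta reads, TUBB3 held 15.4% ± 1.71 in cytoD 4N, 8.88% ± 0.247 in ZM 4N and 6.49% ± 0.631 in untreated 4N libraries. TUBB6 held 14.1% ± 0.199, 11.2% ± 0.0366 and 9.05% ± 0.724 in these groups. Both genes thus took a larger share in each drug-treated 4N group than in untreated 4N cells while their own levels were lower. Reads counted for TUBB3 and TUBB6 may include those of the overlapping genes named above. The part of such reads in the shares was not tested. The shares of TUBB and TUBB4B ran the other way, with 54.3% ± 1.33 and 13.04% ± 0.430 in cytoD 4N against 64.0% ± 1.00 and 18.1% ± 0.512 in untreated 4N libraries. The shares are given as a description, without a test.

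**Figure D4:**
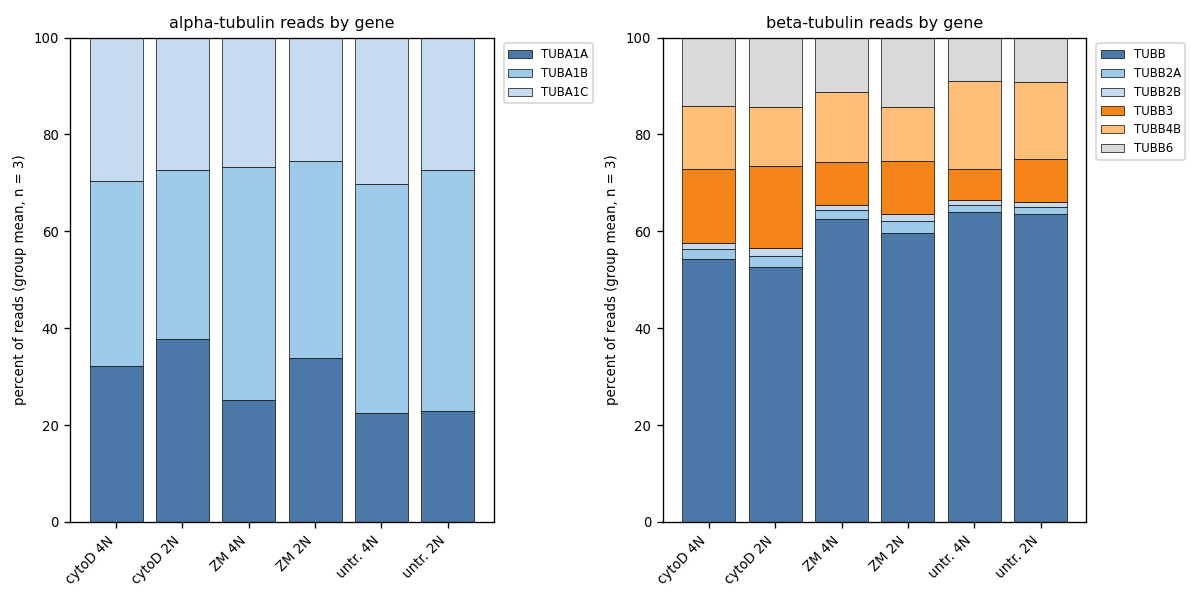
Share of the alpha-tubulin reads (left) and beta-tubulin reads (right) held by each gene, as group means of 3 libraries, in percent. The TUBA1A, TUBB3 and TUBB6 segments are wider with cytochalasin D than in untreated cells, and the TUBB and TUBB4B segments narrower.

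Summed by family, alpha tubulins came to 523 ± 41.5 RPM (reads per 1000000 reads of library size) in cytoD 4N, 1824 ± 151 in ZM 4N and 5292 ± 193 in untreated 4N libraries (SD, n = 3 each). Beta tubulins came to 707 ± 36.2, 1556 ± 120 and 5074 ± 139 RPM, and gamma-tubulin to 19.9 ± 0.858, 45.7 ± 2.27 and 122 ± 2.36 RPM, in the same groups. As counted, the alpha and beta sums were of like size in untreated 4N cells. How reads that map to several genes enter these sums is not known. To compare single genes, RPM were divided by the length of 1 annotated transcript per gene. On that scale TUBA1B had the highest level in untreated 4N cells, 1537 ± 67.0, followed by TUBB at 1217 ± 37.8, TUBA1A at 624 ± 41.7 and TUBB4B at 561 ± 22.2 RPM per kilobase; TUBB2B was lowest at 23.2 ± 1.77. In cytoD 4N cells the order changed at the top, with TUBB at 144 ± 10.7 and TUBA1B at 122.9 ± 10.1, whose ranges did not overlap.

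The genes whose pattern was most like TUBA1B over the 18 libraries, members left out, were TUBA1B-AS1 (Pearson r = 0.99999 on the log2 scale), the processed pseudogene TUBAP2 (r = 0.9996), ENSG00000253174 (r = 0.9956), PSMD2, a subunit of the proteasome (r = 0.9956), and ENSG00000258232 (r = 0.9947), an antisense gene that overlaps TUBA1C. The libraries share 6 group means, and TUBA1B-AS1 overlaps TUBA1B, so these values describe the table. Among the members, r was lowest between TUBA1B and TUBB3 (0.903) and highest between TUBB and TUBG1 (0.997).

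The wider set of tubulin genes gives context for the 10. Of 13 other tubulin genes 3 passed the filter, and 2 of them fell with ZM447439 in both sorts. TUBB4A, a beta-tubulin of brain, had 1.05 ± 0.114 RPKM in ZM 4N and 2.45 ± 0.0766 RPKM in untreated 4N cells (SD, n = 3; difference -0.93, SE 0.08, limma adjusted p = 4.52e-07). TUBG2, the second gamma-tubulin gene, had 3.21 ± 0.0957 RPKM in ZM 4N and 4.40 ± 0.0389 RPKM in untreated 4N cells (difference -0.40, SE 0.05, limma adjusted p = 1.7e-05). TUBG1 fell by 1.36 in the same comparison.

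Of 12 genes of the gamma-tubulin ring complex and its attachment, 7 passed the filter; 6 fell and none rose with ZM447439 in 4N cells, and 6 fell and 1 rose in 2N cells (median -0.24 and -0.34). Of all genes tested, 35.5% fell and 19.6% rose in that comparison of 4N cells, and 32.5% fell and 23.6% rose in that of 2N cells, with medians of -0.07 and -0.04; the ZM447439 counts of the lists below stand against the same shares. MZT1, a small subunit of the ring complex, had 1.09 ± 0.0666 RPKM in ZM 4N and 3.38 ± 0.228 RPKM in untreated 4N cells (difference -1.29, SE 0.12). NEDD1, which ties the complex to centrosomes and spindles, fell by 0.72 in 4N cells (SE 0.07). MZT2B and MZT2A fell by 0.24 and 0.21 (limma adjusted p = 0.046 and 0.0298).

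New tubulin is folded by the chaperonin CCT with prefoldin and the tubulin cofactors. Of 24 such genes 20 were tested, and with ZM447439 1 rose and 14 fell in 4N cells, while 2 rose and 14 fell in 2N cells (median -0.31 and -0.36), beside 35.5% and 32.5% of all genes tested that fell. The CCT subunit genes CCT5, TCP1, CCT2 and CCT4 fell by 0.99, 0.75, 0.63 and 0.58 in 4N cells. CCT5 had 10.4 ± 0.582 RPKM in ZM 4N and 21.3 ± 0.368 RPKM in untreated 4N cells. With cytochalasin D 3 rose and 16 fell in 4N cells, where 26.1% of all genes tested rose and 44.4% fell (median -0.58), and 3 rose and 15 fell in 2N cells, where 27.1% rose and 39.5% fell (median -0.60). These cytochalasin D counts and shares are limma calls at the threshold of the tested comparisons. They rest on the libraries behind the choice of the family, so they are given as a description. In cytoD 4N cells CCT5 had 5.88 ± 0.274 RPKM.

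Of 12 genes of the autoregulation pathway 7 passed the filter, and TTC5 was not one of them. Of these 7, 5 fell and none rose with ZM447439 in each sort (median -0.22 in 4N and -0.29 in 2N cells), beside 35.5% and 32.5% of all genes tested that fell. CNOT9, a CCR4-NOT subunit, fell by 0.55 in 4N cells (SE 0.06), CNOT3 by 0.36, CNOT1, the scaffold of the complex, by 0.34, and the deadenylase gene CNOT7 by 0.22. With cytochalasin D, given as a description, the median difference of these 7 from untreated cells was -0.35 in 4N and -0.29 in 2N cells. The medians over all 13037 genes were -0.13 and -0.08.

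Of 19 listed genes that modify tubulin, 8 were tested; with ZM447439 4 rose and 4 fell in 4N cells (median 0.05), and 4 rose and 2 fell in 2N cells (median 0.19). Among all genes tested 19.6% rose and 35.5% fell in 4N cells, and 23.6% rose and 32.5% fell in 2N cells, so 2 falls of 8 in 2N cells are not above the share of all genes. VASH1, which removes the terminal tyrosine of alpha-tubulin, had 0.897 ± 0.0853 RPKM in ZM 4N and 0.365 ± 0.0161 RPKM in untreated 4N cells (difference 0.69, SE 0.09, limma adjusted p = 1.83e-05). TTL, the ligase that puts the tyrosine back, had 1.10 ± 0.0872 RPKM in ZM 4N and 2.04 ± 0.0389 RPKM in untreated 4N cells (difference -0.67, SE 0.05, limma adjusted p = 4.6e-08). In 2N cells VASH1 rose by 0.69 and TTL fell by 0.36. TTLL12 fell by 0.79 in 4N cells. The deacetylase gene HDAC6 fell by 0.30 in 4N cells and rose by 0.29 in 2N cells.

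Among 43 genes for microtubule-associated proteins and motors, 19 were tested; with ZM447439 2 rose and 14 fell in 4N cells, and 3 rose and 13 fell in 2N cells (median -0.50 and -0.27), beside 35.5% and 32.5% of all genes tested that fell. KIF2C, a kinesin that shortens microtubules, fell by 2.25 in 4N cells (SE 0.17), TPX2, a spindle assembly factor, by 2.18 (SE 0.19), PRC1, which bundles the central spindle, by 2.11 (SE 0.19), and CKAP2 by 1.98 (SE 0.18). All 4 act in mitosis. All 12 G2/M genes fell with ZM447439 in both sorts (median -2.40 in 4N and -1.69 in 2N cells), and in 4N cells the difference was -2.80 for UBE2C, -2.69 for PLK1, -2.60 for MKI67 and -2.28 for CCNB1.

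**Figure D5:**
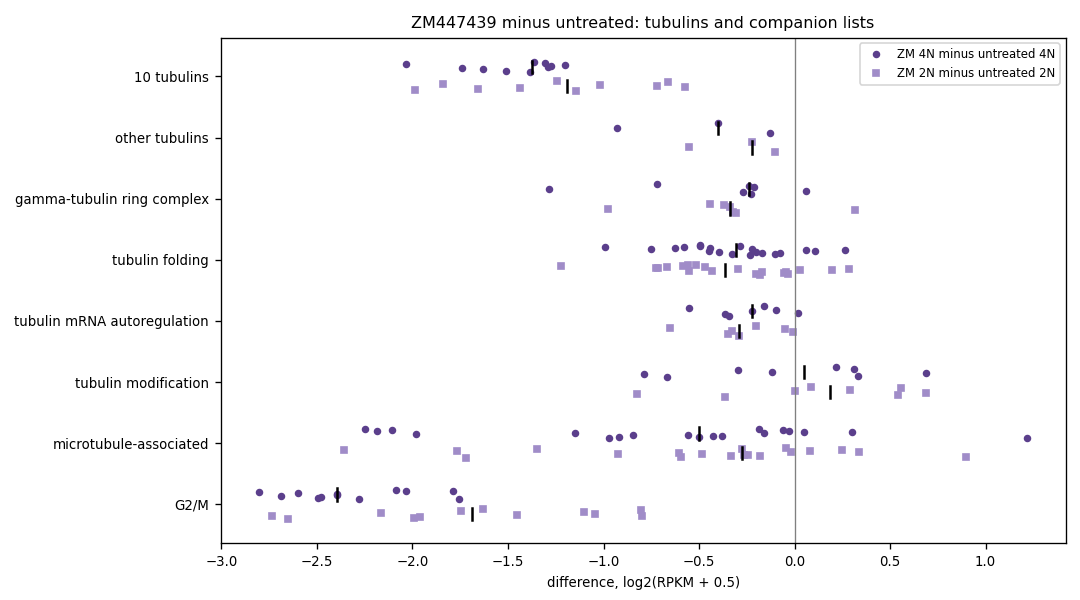
ZM447439 minus untreated differences in log2(RPKM + 0.5) in the 4N sort (circles) and 2N sort (squares), each point 1 gene, with black bars at the medians, for the 10 tubulins and 7 companion lists. The tubulin medians, -1.37 and -1.19, lie below those of the other lists except the G2/M list, at -2.40 and -1.69.

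The sequences before the transcription starts are shown for TUBB4B, TUBA1C and TUBA1B. Each is the 250 bases upstream of a start annotated by RefSeq (GRCh38.p14), in which capitals mark CCAAT (or ATTGG on the other strand), the motif of NF-Y, and TTTGAA (or TTCAAA), the motif of the cell cycle homology region found in many genes with a G2/M peak. RefSeq gives TUBA1C 3 starts; the third, which holds most of these motifs, is shown.
TUBB4B: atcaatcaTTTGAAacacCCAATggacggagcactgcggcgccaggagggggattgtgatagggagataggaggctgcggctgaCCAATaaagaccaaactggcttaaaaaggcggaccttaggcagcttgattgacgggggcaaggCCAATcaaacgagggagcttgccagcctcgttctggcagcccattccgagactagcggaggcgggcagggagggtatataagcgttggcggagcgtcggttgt
TUBA1C: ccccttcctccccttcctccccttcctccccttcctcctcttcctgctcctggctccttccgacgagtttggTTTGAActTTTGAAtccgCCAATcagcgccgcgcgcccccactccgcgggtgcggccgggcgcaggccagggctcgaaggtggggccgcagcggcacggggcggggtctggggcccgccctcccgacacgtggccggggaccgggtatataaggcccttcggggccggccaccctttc
TUBA1B: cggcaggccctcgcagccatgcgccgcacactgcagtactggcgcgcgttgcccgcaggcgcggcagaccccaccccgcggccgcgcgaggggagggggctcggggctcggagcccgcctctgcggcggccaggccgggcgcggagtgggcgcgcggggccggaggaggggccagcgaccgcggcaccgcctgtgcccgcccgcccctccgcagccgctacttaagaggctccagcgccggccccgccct

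The TUBB4B window, chr9:137241037-137241286 on the plus strand, holds 3 CCAAT and 1 TTTGAA. The TUBA1C window, chr12:49264832-49265081 on the plus strand, holds 1 CCAAT and 2 TTTGAA, and was picked for that; of the other two TUBA1C windows one holds 1 CCAAT and 1 TTTGAA, the other 1 CCAAT and no TTTGAA. Of 35116 such windows in the RefSeq table, 32.0% hold CCAAT on either strand, 13.3% hold TTTGAA and 4.7% hold both. The TUBA1B window, chr12:49131396-49131645 on the minus strand, holds neither, and 3 copies of GGGCGG, which 42.6% of windows hold. Among the tubulins described here, only TUBB4B and TUBA1C hold TTTGAA in any window. The like sequence TTCGAA, also searched, occurs in 1 TUBB3 window, and in 1.2% of all windows. CCAAT, on either strand, also occurs in a window of TUBA1A, TUBB, TUBB2B, TUBB3, TUBB6 and TUBG1. TUBB, which is not shown, also differed strongly (-3.07 between cytoD 4N and untreated 4N cells), and none of its windows holds TTTGAA. A match is a description of letters and not of binding, and the part of these motifs in the differences was not tested.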

How the data were processed

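The submitters' processing notes name CASAVA 1.8.2, TopHat2, edgeR and hg19, without settings, and no read counter. The authors deposited RPKM for 57773 Ensembl genes in 18 libraries. Of low values, those worth under 200 reads, 90.0% to 90.3% were whole reads within 0.05 over the GENCODE 29 genomic span, which gave library sizes and reads. Symbols came from a gene name table and were found for 69.0% of rows.

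RPKM are not counts, so log2(RPKM + 0.5) was fitted with limma 3.58.1 in R 4.3.3, with 1 mean per group over all 18 libraries (12 residual degrees of freedom, a trend on the mean level) for 13037 genes, those whose mean reached 0.5 RPKM. Tests were two-sided with Benjamini-Hochberg adjustment at 0.05. The added 0.5 shrinks the differences of genes with low values. The script was tested on simulated data. SE are from limma; SD are over 3 libraries.

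The tubulins and gene lists were chosen with earlier results of these data known. All 10 tubulins are named; from each list the first 4 genes by largest absolute difference among those that passed a tested comparison, and the 5 genes most correlated with TUBA1B. Sorts with the same number within a treatment deviated together (r of deviations 0.192 to 0.632 in 9 of 9 pairs), so a number was taken to mark a culture; the labels do not say so, and in 4 of the 9 pairs the 4N library was closest to a 2N library of another number. Culture blocks are given where they change a call. Alternatives covered the pseudocount, filter, scaling, blocks, libraries used, trend and each replicate. RefSeq promoter windows matched all 10 genes.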

Additional observations from a re-analysis of the deposited data

Results flagged for a closer look

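The 4N minus 2N difference of TUBB6 was smaller with ZM447439 than without treatment (interaction -0.64, SE 0.14, limma adjusted p = 0.00842), which drew attention because the difference between treatments was itself tested and passed. Each untreated 4N library was above each untreated 2N library, and the ZM447439 sorts overlapped. Of all genes tested, 6.58% had a lower and 3.52% a higher difference with ZM447439. Among the tubulins 1 of 10 had a lower one, a count near the share of all genes. AFG3L2, on the other strand of TUBB6, held 17.3% to 68.9% of the number of TUBB6 reads in libraries that did not mark strand, and its part was not tested. Levels of single genes were not searched for outlying libraries, since the groups hold 3.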

How the results depend on the processing

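Falls with ZM447439 held for all 10 tubulins in both sorts under all alternatives, leaving out 1 library included (10 to 10), and no called tubulin changed direction in any alternative. Between untreated sorts 4 to 6 genes, against 7, were called without 1 library, 5 with no filter, 5 with quantile normalization and 9 with the 4 other groups left out of the fit. Without 1 library the count between ZM447439 sorts was 0 to 6, against 3; for the interaction it was 1 to 2, against 1. Between ZM447439 sorts the count was 1 with no filter, 7 with replicates blocked by culture and 0 with the 4 other groups left out of the fit. For the interaction it was 2 with a pseudocount of 1, 3 with the replicate block by number, 3 with the block by culture and 3 with the cytochalasin D groups left out. Alternatives chosen after seeing the data left out the 6 libraries that stood apart, with 2 genes called between cytochalasin D sorts (TUBA1B and TUBA1C), 6 between ZM447439 sorts and 6 for the interaction (2 higher, 4 lower), or both ZM447439 libraries numbered 1, with 5 and 2. The causes were not tested. Shares of all genes called under the alternatives are not given here, so these tubulin counts cannot be set against them. Between drugs and untreated cells replicates share only a number (r of deviations -0.21 to 0.28), and the block by number kept 10 falls in each sort. Of the tested single-gene results under alternatives, 967 stayed on the same side of the threshold, called or not, 37 gained a call and 36 lost one. Of the cytochalasin D differences given as a description, 26 were marked as moved in size and 514 as the same. Between cytoD 4N and untreated 4N cells TUBB3 was at -1.24 with quantile normalization, against -1.53. TUBB2B was at -2.31 with a pseudocount of 0.1 and at -1.73 with 1, against -2.00. Rescaling moved the all-gene median by over 0.1 only between cytoD 4N and untreated 4N cells (0.126, or 0.139 with quantile normalization). Each tubulin held at least 413 reads in every library; how far reads shared with near-identical genes move single-gene values was not tested.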

Other observations

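Pseudogenes of the tubulins carried high values in the table. TUBAP2, a copy of an alpha gene, had a mean of 83.0 RPKM over the 18 libraries, and TUBBP1 and TUBBP2, copies of a beta gene, had 81.7 and 49.5 RPKM. Across the libraries TUBAP2 had r = 0.9996 with TUBA1B on the log2 scale, and TUBBP1 and TUBBP2 had r = 0.9998 and r = 0.9992 with TUBB, as a description over 18 libraries that share 6 group means. Whether these values are reads of the parent genes was not tested.

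Genes that overlap a tubulin on the other strand held reads in numbers that differed between libraries relative to the tubulin's own. RETREG3 held 46.9% to 263.9% of the number of TUBG1 reads, PSMG4 held 31.5% to 351.1% of the TUBB2B reads and AFG3L2 held 17.3% to 68.9% of the TUBB6 reads. FAM166A held 5.46% to 6.60% of the TUBB4B reads in all libraries.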
